A study of Homo sapiens with 12 samples.

Results

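The class I and class IIa histone deacetylases were followed on Affymetrix U133 Plus 2.0 arrays of 2 human lymphoma lines in which BCL6 had been knocked down. The members are the class I genes HDAC1, HDAC2, HDAC3 and HDAC8 and the class IIa genes HDAC4, HDAC5, HDAC7 and HDAC9. Every probe set that the platform annotation assigns to exactly 1 gene symbol, that symbol being a member, was taken, which gave 8 genes of 19775 and 19 probe sets (7 of class I and 12 of class IIa) of 41091 with 1 symbol. The rule itself uses no measured value, but the genes were proposed with earlier results of these data known.

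The lines, OCI-Ly7 and Pfeiffer, are established cell lines from diffuse large B-cell lymphoma with a germinal centre B cell character. BCL6 is the repressor that holds B cells in the germinal centre programme and is abundant in such tumours. Cells were kept in IMDM medium with serum and received an siRNA against BCL6 or a non-target control oligonucleotide, and total RNA was taken after 48 h. There were 3 arrays each of OCI-Ly7 control, OCI-Ly7 BCL6 siRNA, Pfeiffer control and Pfeiffer BCL6 siRNA, 12 in all. Titles of the Pfeiffer controls read NTshRNA while their descriptions read siRNA. Each line stands for 1 tumour, and the transfection was transient. The labels do not state separate cultures for the arrays of a group. The p-values thus set a difference only against the variation among these arrays, and that variation may be technical.

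Histone deacetylases remove acetyl groups from histone tails and other proteins, and they mostly work as the enzymes of corepressor complexes that transcription factors bring to DNA. HDAC1 and HDAC2 are the paralogous enzymes of the SIN3, NuRD and CoREST complexes, HDAC3 is the enzyme of the NCoR/SMRT complex that BCL6 recruits, and HDAC8 acts outside these complexes, for instance on the cohesin subunit SMC3. The class IIa proteins have little deacetylase activity of their own. They bind MEF2 transcription factors, also interact with BCL6, and leave the nucleus when they are phosphorylated and bound by 14-3-3 proteins.

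BCL6 fell after its siRNA in both lines with 2 of its 3 probe sets, and with the third in Pfeiffer. Its brightest probe set fell by 0.42 ± 0.08 (SE) on the log2 scale in OCI-Ly7 and by 0.96 ± 0.08 in Pfeiffer (limma, adjusted p = 0.0103 and 8.41e-07). The second gave differences of -0.49 and -1.29, and the third of -0.17 and -0.97, of which that in OCI-Ly7 was not called (adjusted p = 0.429). Levels are given throughout as log2(signal + 16), where 16 is a pseudocount that shrinks differences of dim probe sets, and a change is BCL6 siRNA minus control on that scale. All array medians lay between 71.4 and 85 on the linear scale, and Pfeiffer siRNA replicate 3 had the lowest array weight in limma, 0.472 against 0.817 to 1.34 on the others. All 6 B cell markers measured were above the test's lower limit in every group, while 0 of 7 T and NK cell and 0 of 7 myeloid markers were. The summed signal of the B cell markers was 55540 to 56402 in Pfeiffer controls and 34651 to 39208 after siRNA, and 61233 to 62879 and 70230 to 71785 in OCI-Ly7. The part of this shift in the deacetylase values was not tested.

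The upstream sequences of the genes with the largest called siRNA change (HDAC1) and the largest difference between lines (HDAC9) are shown first, since these are the stretches next to which their transcripts start. Each is the 250 bases before a RefSeq start site, 5′ to 3′ along the gene's strand, from build GRCh38.p14. HDAC1 lies at chr1:32291833-32292082 on the + strand. Of the HDAC9 starts, the window of the upstream one is chr7:18086575-18086824 and that of a downstream one chr7:18495499-18495748, both on the + strand. Capitals mark matches, on either strand, to GGGCGG (the GC box bound by Sp1 family factors), CCAAT (the CCAAT box bound by NF-Y), TTCCTAGAA (a BCL6 consensus) and TTCNNNGAA (the wider BCL6 and STAT type of site, which contains the consensus).

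HDAC1: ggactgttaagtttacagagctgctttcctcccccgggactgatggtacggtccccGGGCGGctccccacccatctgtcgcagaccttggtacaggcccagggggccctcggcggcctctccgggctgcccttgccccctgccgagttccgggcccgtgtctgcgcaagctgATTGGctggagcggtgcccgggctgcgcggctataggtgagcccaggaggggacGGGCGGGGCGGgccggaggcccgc

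HDAC9 upstream start: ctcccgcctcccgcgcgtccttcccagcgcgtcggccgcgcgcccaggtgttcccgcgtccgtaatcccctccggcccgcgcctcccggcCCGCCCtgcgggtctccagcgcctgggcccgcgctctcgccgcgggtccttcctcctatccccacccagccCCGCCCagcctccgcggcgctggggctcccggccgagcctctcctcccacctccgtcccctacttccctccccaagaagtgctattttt

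HDAC9 downstream start: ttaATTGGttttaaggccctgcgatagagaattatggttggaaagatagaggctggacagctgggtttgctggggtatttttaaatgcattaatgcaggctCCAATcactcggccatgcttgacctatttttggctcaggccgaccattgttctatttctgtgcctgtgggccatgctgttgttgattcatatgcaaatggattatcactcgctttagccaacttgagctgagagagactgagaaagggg

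The HDAC1 window held 3 GC boxes, of which a pair close to the start shares a base, and 1 CCAAT box. The HDAC9 upstream window held 2 GC boxes, and the downstream window 2 CCAAT boxes. GC content was 71.6% for HDAC1, 75.2% for the upstream and 45.2% for the downstream HDAC9 window. Among 35116 promoter windows of this length in the RefSeq table, 42.6% held a GC box, 32% a CCAAT box, 6.57% the wider BCL6 and STAT motif and 0.313% the BCL6 consensus. Neither BCL6 motif was among the letters of these 3 windows. Among the other member windows, HDAC3 and 1 of 5 HDAC4 starts held a GC box. HDAC8 and 1 HDAC4 start held the wider motif, and none the consensus. Of the HDAC9 windows not printed, that from chr7:18495460 overlaps the printed downstream window and holds the same 2 CCAAT boxes. The window from chr7:18509020 held 2 matches that share letters within CCAATTGG, read on opposite strands. That from chr7:18496012 held no match. HDAC5 had no window in the RefSeq promoter table, so it was not scanned. A match is a description of the letters, not a measured site.

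After BCL6 siRNA, HDAC1 and HDAC5 fell in Pfeiffer, and no other member was called in either line. Of the 19 probe sets, 11 were bright enough to be tested, covering 7 of the 8 genes; HDAC4 had none. Of these 11, 0 were called in OCI-Ly7, where 1.61% of the 20546 tested probe sets were called, and 2 were called in Pfeiffer, both lower, where 12.4% were called in either direction and 6.33% lower (limma, adjusted p below 0.05). In OCI-Ly7 1 member probe set, that of HDAC3, had an unadjusted p below 0.05, as had 2643 of all tested probe sets. The median change of the 11 was -0.08 in OCI-Ly7 and -0.04 in Pfeiffer, against -0.0011 and 0.0046 over all tested probe sets. Among the 11 are the HDAC9 probe sets 205659_at and 230968_at, which passed the filter through OCI-Ly7 only. They were dim in Pfeiffer, so their missing calls there say little.

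**Figure D1:**
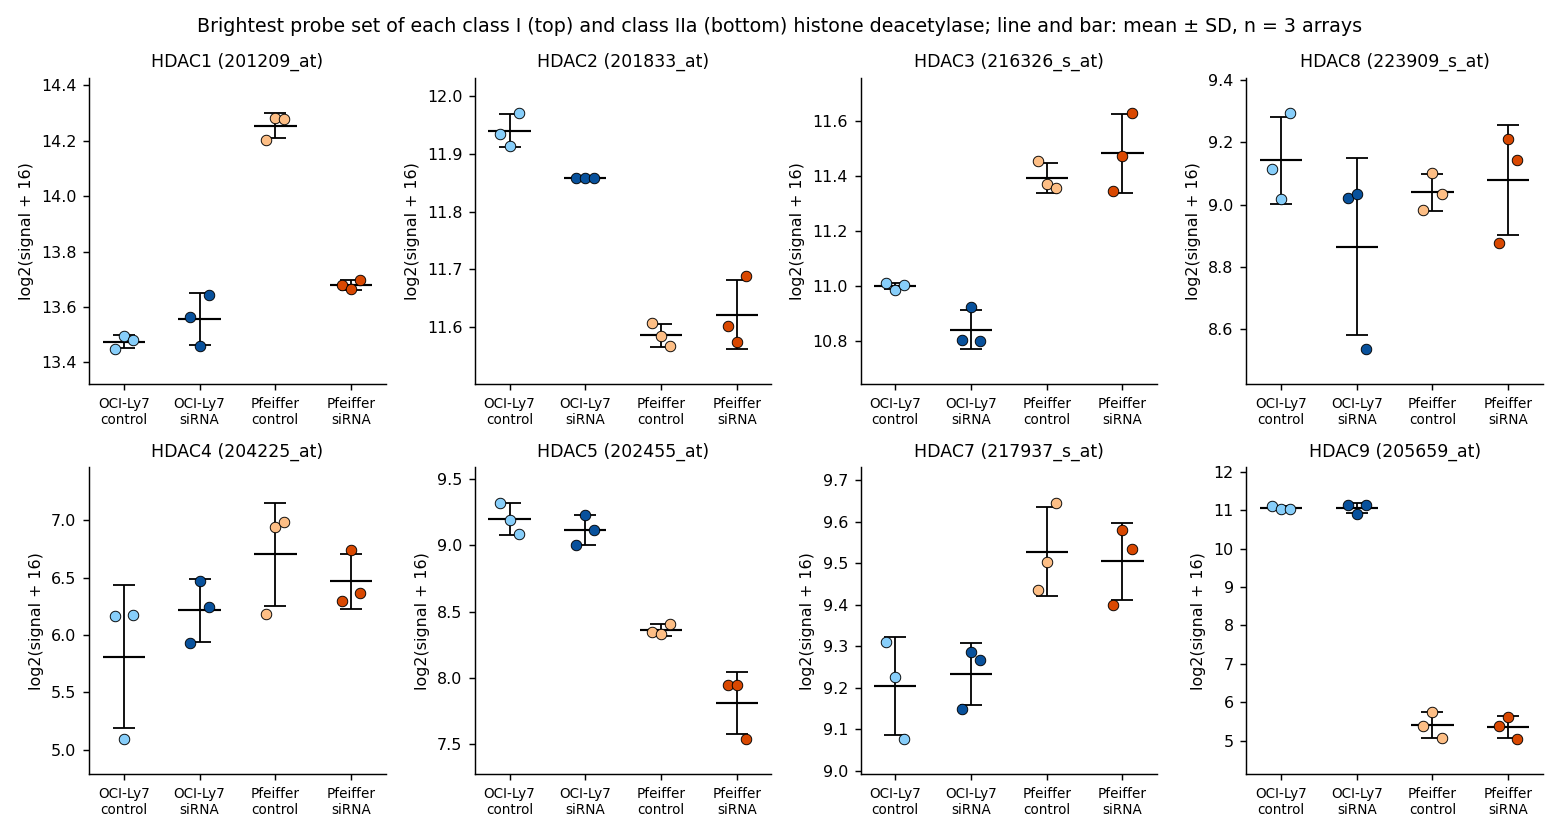
Levels of the brightest probe set of each member, as log2(signal + 16) on the vertical axes (which do not start at 0), on every array of the 4 groups; points are arrays, the long line is the group mean and bars are ± SD (n = 3). HDAC1 dropped from 14.20 to 14.28 on Pfeiffer controls to 13.66 to 13.70 after siRNA, and HDAC9 lay near 11 in OCI-Ly7 and near 5 in Pfeiffer.

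HDAC1, an enzyme shared by SIN3, NuRD and CoREST, was the member with the clearest change. Its only probe set, 201209_at, read 14.20, 14.28 and 14.28 on Pfeiffer control arrays and 13.68, 13.66 and 13.70 on Pfeiffer siRNA arrays. In OCI-Ly7 it read 13.45, 13.50 and 13.48 on control and 13.56, 13.46 and 13.64 on siRNA arrays. All Pfeiffer siRNA arrays lay below all Pfeiffer controls, while the OCI-Ly7 groups overlapped. Group means were 14.25 ± 0.05 and 13.68 ± 0.02 in Pfeiffer and 13.47 ± 0.02 and 13.56 ± 0.09 in OCI-Ly7 (SD, n = 3 each). In Pfeiffer HDAC1 fell by 0.57 ± 0.05 (SE), which left 67.1% of the control signal (limma, adjusted p = 3.6e-06). The 95% confidence interval of that share ran from 62.2% to 72.5%. In OCI-Ly7 the change was 0.08 ± 0.05 with an interval of -0.03 to 0.19 (adjusted p = 0.568).

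The HDAC1 response differed between the lines. The change in Pfeiffer minus that in OCI-Ly7 was -0.66 ± 0.07 (SE) (limma, adjusted p = 6.59e-05). It was the 1 called difference among 11 member probe sets, where 6.43% of all tested probe sets were called. The knockdown was unequal too, as BCL6 itself fell further in Pfeiffer with each of its probe sets. The BCL6 differences between lines were -0.54, -0.80 and -0.81 (limma, adjusted p = 0.00653, 0.000682 and 0.000738). The part of the unequal knockdown in the HDAC1 difference was not tested. In bulk RNA, fewer transcripts per cell and fewer cells carrying them cannot be told apart. HDAC1 started higher in Pfeiffer, and the order of its group means was Pfeiffer control, Pfeiffer siRNA, OCI-Ly7 siRNA and OCI-Ly7 control. The middle neighbours were close, with the lowest Pfeiffer siRNA array at 13.66 and the highest OCI-Ly7 siRNA array at 13.64.

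HDAC2, the paralogue of HDAC1 in the same complexes, did not pass the test in either line. Its brighter probe set 201833_at read 11.94, 11.91 and 11.97 on OCI-Ly7 controls and 11.86 on each of the 3 siRNA arrays. On Pfeiffer arrays it read 11.61, 11.58 and 11.57 in controls and 11.60, 11.57 and 11.69 after siRNA. The OCI-Ly7 groups did not overlap, and siRNA was lower, which holds for 20.8% of all tested probe sets in either direction. The change of -0.08 ± 0.05 (SE) in OCI-Ly7 had an adjusted p of 0.553 in limma, and that of 0.04 ± 0.05 in Pfeiffer one of 0.725. The Pfeiffer interval ran from -0.07 to 0.14. The dimmer HDAC2 probe set 242141_at, at 7.07 to 7.97 over all arrays, gave differences of -0.17 and 0.08 with overlapping groups.

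HDAC3, the enzyme of the NCoR/SMRT complex, read 11.01, 10.99 and 11.00 on OCI-Ly7 controls and 10.80, 10.92 and 10.80 on siRNA arrays with its only probe set, 216326_s_at. These groups did not overlap, but the change of -0.16 ± 0.07 (SE), with an interval of -0.31 to -0.01, missed the threshold (limma, unadjusted p = 0.043, adjusted p = 0.368). On Pfeiffer arrays HDAC3 read 11.46, 11.37 and 11.35 in controls and 11.34, 11.47 and 11.63 after siRNA, and the groups overlapped. The change there was 0.09 ± 0.07 (adjusted p = 0.493), and the difference between lines of 0.25 ± 0.10 missed the threshold too (adjusted p = 0.178).

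HDAC8, the class I member outside these complexes, had 3 probe sets, and none passed in either line. The brightest, 223909_s_at, stood at 8.54 to 9.29 over all arrays, with differences of -0.28 ± 0.14 (SE) in OCI-Ly7 and 0.04 ± 0.14 in Pfeiffer (limma, adjusted p = 0.449 and 0.91). The second, 223345_at, gave differences of 0.10 and -0.04, and the third, 223908_at, of -0.27 and -0.12. The siRNA and control arrays overlapped for each of them in both lines, and the signs of the probe sets disagreed.

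**Figure D2:**
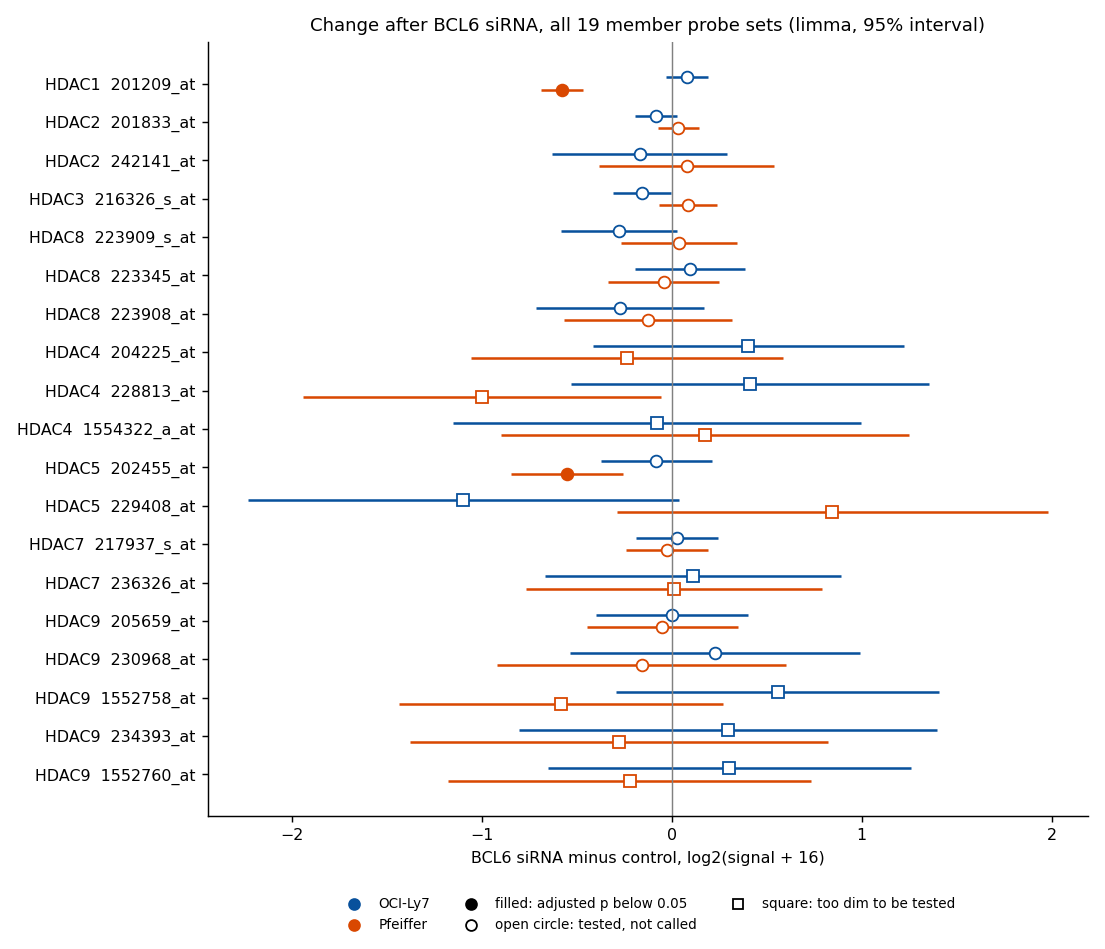
BCL6 siRNA minus control on the log2(signal + 16) scale (horizontal axis) for all 19 member probe sets, with 95% confidence intervals from limma, in OCI-Ly7 and Pfeiffer. Filled points passed an adjusted p of 0.05, open circles did not, and squares were too dim to be tested, with intervals from a fit without the filter; the filled points are HDAC1 at -0.57 and HDAC5 at -0.55, both in Pfeiffer.

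HDAC5, a class IIa member that binds MEF2, was the other gene called lower in Pfeiffer. Its brighter probe set 202455_at read 8.34, 8.33 and 8.41 on Pfeiffer controls and 7.95, 7.95 and 7.54 on siRNA arrays, with siRNA replicate 3 the lowest. On OCI-Ly7 arrays it read 9.32, 9.19 and 9.08 in controls and 9.002, 9.23 and 9.12 after siRNA. The Pfeiffer groups did not overlap and the OCI-Ly7 groups did. The 2 probe sets called in Pfeiffer, of HDAC1 and HDAC5, were also the 2 of the 11 whose groups did not overlap there, against 29.3% of all tested probe sets. HDAC5 fell by 0.55 ± 0.14 (SE) in Pfeiffer, leaving 68.3% of the control signal (interval 55.7% to 83.7%; limma, adjusted p = 0.016). In OCI-Ly7 the change was -0.08 ± 0.14 with an interval of -0.37 to 0.21 (adjusted p = 0.88). The difference between lines of -0.47 ± 0.19 was not called (adjusted p = 0.182), so the response is not shown to differ.

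The HDAC5 call was a narrow one. It was lost without Pfeiffer siRNA replicate 3 (change -0.42, adjusted p = 0.0526), without Pfeiffer control replicate 3 (-0.53, adjusted p = 0.055) and in a fit of the Pfeiffer arrays alone (adjusted p = 0.0602). The second HDAC5 probe set, 229408_at, was too dim to be tested and had the opposite sign in Pfeiffer. It stood at 5.25 to 6.66 on Pfeiffer controls and 6.48 to 6.83 after siRNA, a difference of 0.85 ± 0.53 (SE). In OCI-Ly7 the difference was -1.10 ± 0.53, with siRNA replicate 2 the lowest at 4.90, and the groups overlapped in both lines.

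HDAC7, the class IIa member known for its expression in lymphocytes, was not called in either line. Its probe set 217937_s_at read 9.31, 9.23 and 9.08 on OCI-Ly7 controls and 9.15, 9.29 and 9.27 after siRNA, and 9.44, 9.50 and 9.65 on Pfeiffer controls and 9.40, 9.58 and 9.53 after siRNA. The changes were 0.03 and -0.02, each ± 0.10 (SE), with intervals of -0.19 to 0.25 and -0.24 to 0.19. The groups overlapped in both lines. Its dim second probe set 236326_at, at 5.67 to 6.67, gave differences of 0.11 and 0.01.

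HDAC4 was dim in both lines, and the filter left it out of the test. Its 3 probe sets lay between 4.46 and 6.99 on all 12 arrays, below the lowest level tested of 7.24 in the brighter line (a signal of 135). In a fit without the filter, 204225_at gave differences of 0.40 in OCI-Ly7 and -0.23 in Pfeiffer, and 1554322_a_at of -0.08 and 0.17. The probe set 228813_at read 6.69, 6.13 and 5.95 on Pfeiffer controls and 5.67, 4.46 and 5.64 after siRNA. Those groups did not overlap, but the change of -0.998 ± 0.44 (SE) had an adjusted p of 0.282 without the filter (limma), and the same probe set stood at 0.41 in OCI-Ly7.

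HDAC9, whose splice forms include some without a catalytic domain, was not called after siRNA in either line. The brightest of its 5 probe sets, 205659_at, read 11.10, 11.03 and 11.03 on OCI-Ly7 controls and 11.15, 10.91 and 11.12 on siRNA arrays, a change of 0.0024 ± 0.19 (SE) with an interval of -0.40 to 0.40. In Pfeiffer it read 5.38, 5.74 and 5.06 in controls and 5.37, 5.63 and 5.05 after siRNA. The second, 230968_at, gave differences of 0.23 ± 0.36 in OCI-Ly7 and -0.16 ± 0.36 in Pfeiffer. In Pfeiffer both lay below the level of 7.24 needed for testing and were tested through OCI-Ly7 only. Their missing calls in Pfeiffer therefore say little. Of the 3 untested ones, 1552758_at read 6.28, 6.21 and 6.66 on OCI-Ly7 controls and 6.85, 7.20 and 6.77 after siRNA, with no overlap, a difference of 0.56 ± 0.40 with an adjusted p of 0.757 without the filter (limma). In Pfeiffer its difference was -0.58 ± 0.40 with overlapping groups (adjusted p = 0.559 without the filter). The probe sets 234393_at and 1552760_at each gave a difference of 0.30 in OCI-Ly7, and of -0.28 and -0.22 in Pfeiffer, with overlapping groups.

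Between the lines themselves the family differed much more than after siRNA. Comparing Pfeiffer controls with OCI-Ly7 controls, 8 of 11 tested member probe sets were called, 4 higher and 4 lower in Pfeiffer. That share of 72.7% lies close to the 75% called over all tested probe sets (35.7% higher and 39.2% lower), so the number itself is not particular to these genes. The same 8 of 11 had groups that did not overlap, against 78.5% over all tested probe sets. Both counts, and the 4 lower, include the HDAC9 probe sets 205659_at and 230968_at. These passed the filter through OCI-Ly7 only, so a difference between lines was built into their being tested. These contrasts share their control arrays with the siRNA comparisons. Labels give no batch, so a line and a batch cannot be told apart.

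HDAC9 separated the lines most widely of the members. The probe set 205659_at had a control mean of 11.06 ± 0.04 in OCI-Ly7 and 5.40 ± 0.34 in Pfeiffer (SD, n = 3 each), a difference of -5.66 ± 0.19 (SE). The mean control signals were 2113 and 26.9 on the linear scale. As the Pfeiffer signal lay far below the 135 needed for testing, the size of the difference depends on the pseudocount, from -4.59 with 64 to -6.31 with 1, and no fold is given. The second probe set, 230968_at, differed by -2.40 ± 0.36, from 7.66, 7.99 and 7.81 in OCI-Ly7 controls to 5.59, 4.53 and 6.15 in Pfeiffer controls. Both passed the filter through OCI-Ly7 only, being dim in Pfeiffer, so that a difference between lines was built into their being tested. In a fit without the filter their adjusted p was 9.84e-13 and 8.05e-05 (limma). The 3 untested probe sets, all dim, had lower means in Pfeiffer controls as well. Of these, 1552758_at stood at -1.03 ± 0.40 (SE) without overlap. The groups overlapped for 234393_at at -0.93 ± 0.51 and for 1552760_at at -0.75 ± 0.45. Without the filter their adjusted p was 0.0517, 0.178 and 0.218 (limma), so none of these passed.

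**Figure D3:**
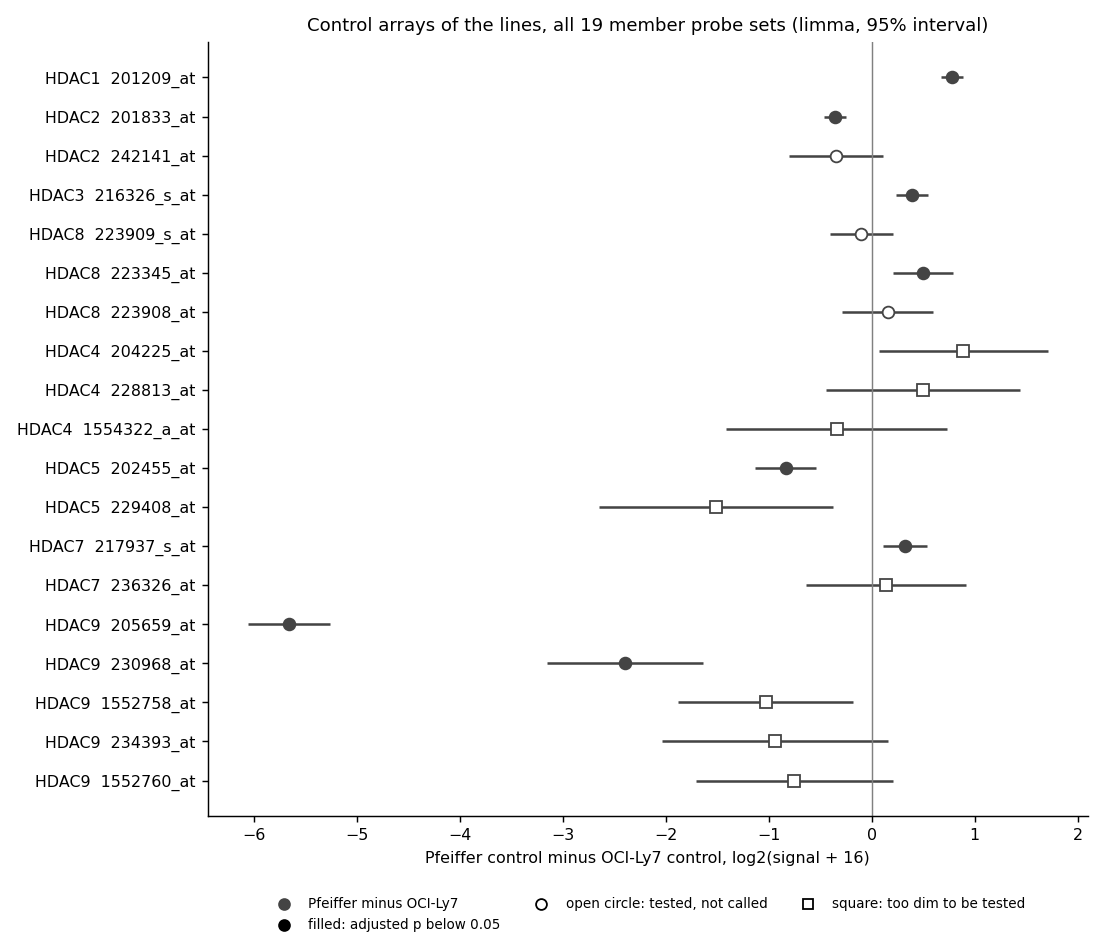
Pfeiffer control minus OCI-Ly7 control on the log2(signal + 16) scale (horizontal axis) for all 19 member probe sets, with 95% confidence intervals from limma. Filled points passed an adjusted p of 0.05, open circles did not, and squares were too dim to be tested; all 5 HDAC9 probe sets lie left of 0, the brightest at -5.66, while HDAC1 lies at 0.78.

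Among the class I genes, HDAC1 was higher in Pfeiffer controls by 0.78 ± 0.05 (SE), a 1.72-fold difference (limma, adjusted p = 1.76e-09), and HDAC3 by 0.39 ± 0.07 (adjusted p = 0.000136). HDAC2 was lower in Pfeiffer by 0.35 ± 0.05 with 201833_at (a difference of -0.35, adjusted p = 1.22e-05). Its second probe set stood at -0.35 ± 0.22 and was not called (adjusted p = 0.156). The paralogues HDAC1 and HDAC2 thus had differences of opposite sign between the lines. The HDAC8 probe sets disagreed. One, 223345_at, was higher in Pfeiffer by 0.50 ± 0.14 (adjusted p = 0.0038), whereas 223909_s_at at -0.10 and 223908_at at 0.16 were not called (adjusted p = 0.526 and 0.503).

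Among the class IIa genes, HDAC5 was lower in Pfeiffer by a difference of -0.84 ± 0.14 (SE) with 202455_at (limma, adjusted p = 5.16e-05), and its dim second probe set stood at -1.51 ± 0.53. HDAC7 was higher in Pfeiffer by 0.32 ± 0.10 with 217937_s_at (adjusted p = 0.00916), and its dim one stood at 0.14. The HDAC4 probe sets stood at 0.89, 0.50 and -0.34 and were not tested. For 204225_at the lowest Pfeiffer control, 6.18, was just above the highest OCI-Ly7 control, 6.17.

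The other enzymes of the deacetylase and acetyltransferase system were read from lists of related genes, each gene by its brightest probe set. Over 10 lists, 77 genes were tested. In OCI-Ly7 0 rose and 2 fell (2.6% called, against 1.61% of all tested probe sets), and in Pfeiffer 5 rose and 8 fell (16.9%, against 12.4%). Those backgrounds count several probe sets of a gene, whereas the lists take 1 per gene. In a fit with 1 probe set per gene, 265 of 9888 were called in OCI-Ly7 and 1603 of 9888 in Pfeiffer. Against that like background the lists show no clear excess. None of the 3 tested class IIb and IV deacetylases (HDAC6, HDAC10 and HDAC11) and none of the 6 tested sirtuins, the NAD-dependent deacetylases, was called in either line (limma; 0 of each, with HDAC11 at -0.89 ± 0.31 (SE) and an adjusted p of 0.0788 in Pfeiffer, and SIRT5 at 0.30 ± 0.09 and 0.0541). HDAC11 and SIRT5 were also the only ones of these 9 with an unadjusted p below 0.05, in Pfeiffer alone. In that line 5169 of all 20546 tested probe sets had such a p, so this is not particular to these genes. Between controls HDAC11, the class IV enzyme, and the tubulin deacetylase HDAC6 were lower in Pfeiffer, by differences of -1.24 ± 0.31 and -0.73 ± 0.12 (adjusted p = 0.00222 and 6.41e-05). HDAC11 stood at 8.34 in OCI-Ly7 controls and at 7.11 in Pfeiffer controls, below the level of 7.24 needed for testing. HDAC11 too was thus tested through OCI-Ly7 only. Of the 6 tested sirtuins, 1 was higher and 3 were lower in Pfeiffer controls, SIRT5 by a difference of -2.02 ± 0.09 (limma, adjusted p = 3.14e-11). Over all tested probe sets 75% were called between controls, and with 1 probe set per gene 7867 of 9888.

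**Figure D4:**
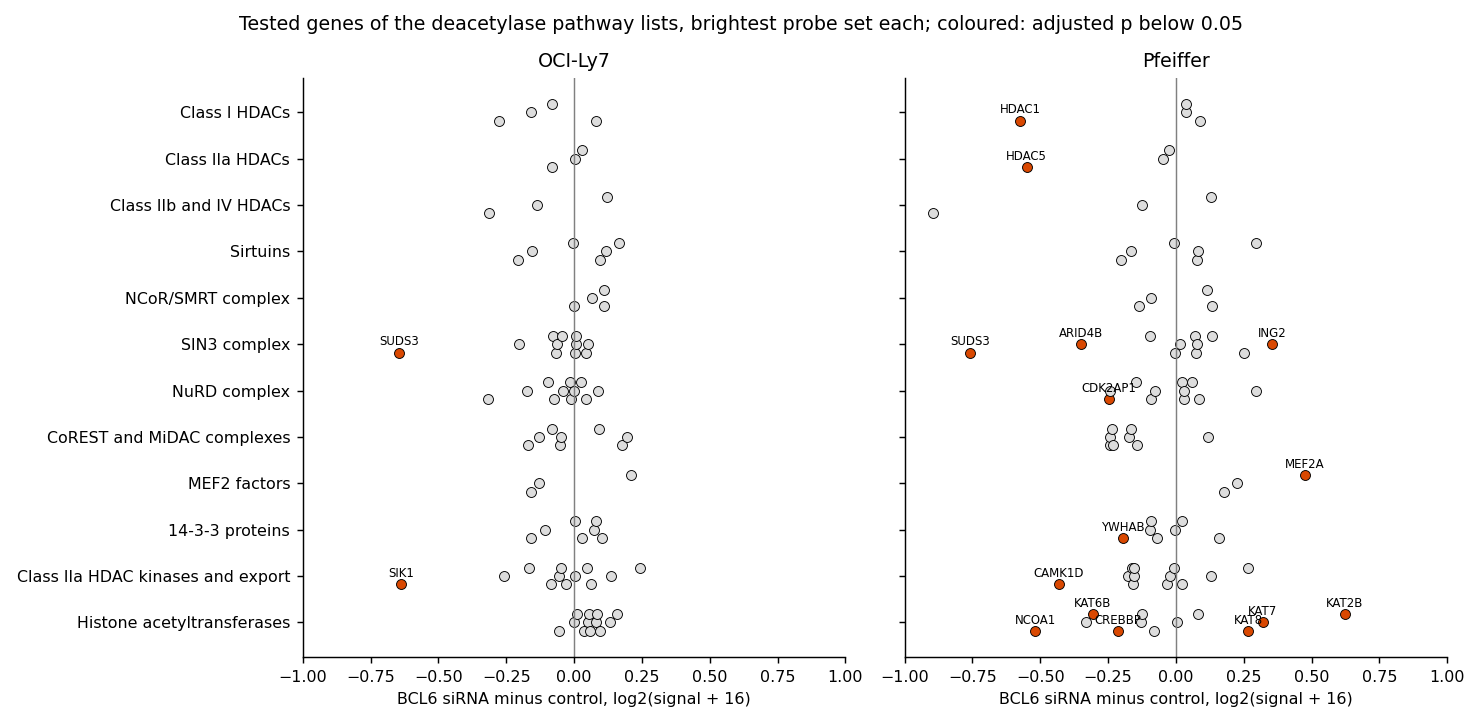
BCL6 siRNA minus control on the log2(signal + 16) scale (horizontal axes) for the tested genes of the member and pathway lists, 1 point per gene from its brightest probe set, in each line. Coloured and named points passed an adjusted p of 0.05; SUDS3 is named in both panels, at -0.65 and -0.76.

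In the complexes that hold HDAC1 and HDAC2, SUDS3, a SIN3 subunit that binds the deacetylases, fell by 0.65 ± 0.10 (SE) in OCI-Ly7 and 0.76 ± 0.10 in Pfeiffer (limma, adjusted p = 0.00472 and 0.000137). Its second probe set gave -0.58 and -0.68. SUDS3 was the 1 gene of the 77 called in both lines. Of 11 tested SIN3 genes, 1 fell in OCI-Ly7, and 2 fell and 1 rose in Pfeiffer. In Pfeiffer 12.4% of all tested probe sets were called, and 1603 of 9888 with 1 probe set per gene. There ING2, a reader of methylated histone H3, rose by 0.36 (adjusted p = 0.00881, but 0.0829 in a fit of the Pfeiffer arrays alone), while ARID4B fell by 0.35 (adjusted p = 0.0377) but stood at 0.24 with another probe set. Of 11 tested NuRD genes 0 were called in OCI-Ly7 (2 at an unadjusted p below 0.05) and 1 in Pfeiffer, CDK2AP1, which fell by 0.25 (adjusted p = 0.0184). Of 8 tested CoREST and MiDAC genes and 4 NCoR/SMRT genes, 0 were called in either line (limma), with 3 and 1 at an unadjusted p below 0.05 in Pfeiffer and 0 in OCI-Ly7. Over all 20546 tested probe sets, 5169 had such a p in Pfeiffer and 2643 in OCI-Ly7. Median changes in Pfeiffer were 0.07 over the SIN3, 0.02 over the NuRD, -0.20 over the CoREST and MiDAC and 0.01 over the NCoR/SMRT genes. The ARID4B call was lost in 8 of 22 alternatives (among the arrays, without OCI-Ly7 siRNA replicate 1, Pfeiffer control replicates 1 and 3, or Pfeiffer siRNA replicates 2 and 3) and that of CDK2AP1 in 5 of 23 (Pfeiffer control replicates 2 and 3, siRNA replicates 1 and 2).

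Among the partners of the class IIa enzymes, MEF2A, the transcription factor they repress, rose by 0.48 ± 0.08 (SE) in Pfeiffer (limma, adjusted p = 0.00139), and its other 3 probe sets stood at 0.15 to 0.44 and were not called. The other 2 tested MEF2 genes were not called. Of these, MEF2C stood at 5.81 in Pfeiffer controls and 5.98 after siRNA, below the level of 7.24 needed for testing. It was tested through OCI-Ly7 only, where controls stood at 11.65, so the missing call in Pfeiffer says little. The kinase SIK1, which phosphorylates class IIa deacetylases, fell by 0.64 ± 0.14 in OCI-Ly7 (limma, adjusted p = 0.0385). That call was lost in 12 of 21 alternative analyses that tested it. Among them were those without any 1 of the 3 OCI-Ly7 siRNA arrays, OCI-Ly7 control replicates 1 and 3 or any Pfeiffer control. An untested SIK1 probe set stood at 0.07 in OCI-Ly7. Of 12 tested kinase and export genes, the call in Pfeiffer was CAMK1D, which fell by 0.43 (limma, adjusted p = 0.045). That call was lost in 14 of 23 alternatives, including without any 1 array other than Pfeiffer siRNA replicates 1 and 3. Another tested CAMK1D probe set was called lower there too, at -1.24 ± 0.37 (limma, adjusted p = 0.0382, but 0.101 without the filter). Untested ones stood at 0.11 and -0.29. Of 7 genes for 14-3-3 proteins, YWHAB fell by 0.19 in Pfeiffer (limma, adjusted p = 0.0227). That call was lost in 6 of 22 alternatives, including without Pfeiffer control replicate 1 or 3 or siRNA replicate 1. Other YWHAB probe sets stood at -0.22 and -0.14 in Pfeiffer and were not called. Of 12 tested acetyltransferases, the opposing enzymes, 0 were called in OCI-Ly7 (1 at an unadjusted p below 0.05), while 3 rose and 3 fell in Pfeiffer. For this and the other lists here, the shares called over all tested probe sets were 1.61% in OCI-Ly7 and 12.4% in Pfeiffer. With 1 probe set per gene, as in the lists, 265 of 9888 were called in OCI-Ly7 and 1603 of 9888 in Pfeiffer. An unadjusted p below 0.05 in OCI-Ly7 was reached by 2643 of 20546 tested probe sets. KAT2B rose by 0.62 ± 0.09 (adjusted p = 0.000192), and the coactivators NCOA1 and KAT6B fell by 0.52 ± 0.09 and 0.31 ± 0.08 (adjusted p = 0.00156 and 0.0174). The KAT6B call was lost without Pfeiffer control replicate 1 or 3 or siRNA replicate 2, whereas the calls of KAT2B, MEF2A and SUDS3 held in all 23 alternatives and that of NCOA1 in the 22 that tested its probe set. The other KAT6B probe sets tested stood at -0.24, -0.07 and -0.04 in Pfeiffer and were not called, and an untested one stood at 0.52. All 4 NCOA1 probe sets fell, by differences of -0.59 to -0.50. KAT7 and KAT8, named after their values were seen, rose by 0.32 and 0.27, and CREBBP fell by 0.21.

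Of 10949 other genes, those most like HDAC1 over the 12 arrays, after the mean of each line was subtracted, were NUP88, a nuclear pore protein (Pearson r = 0.979), and CD52, a lymphocyte surface antigen (r = 0.975). NUP88 stood at 0.05 in OCI-Ly7 and -0.49 in Pfeiffer, and CD52 at 0.23 and -1.40. For HDAC5 they were CDKN2AIPNL (r = 0.956) and TCEAL8 (r = 0.933), which stood at -0.63 and -0.46 in Pfeiffer. The arrays of a group share their treatment, so these r describe likeness only. Before the line means were removed, r was -0.588 for NUP88, -0.0274 for CD52, -0.749 for CDKN2AIPNL and -0.439 for TCEAL8. For the other 5 members with a tested brightest probe set, the highest 2 values per gene were 0.87 to 0.929.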

How the data were processed

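The authors deposited log2 signals for 54675 probe sets on 12 arrays, made with MAS5 and affy per the submitters' processing notes; no version or detection call was used here. Every array had a trimmed mean signal of 500.0, so arrays were not normalized again. Signals have no read depth. Precision depends on the number of arrays and on the signal level, with an SE of 0.05 for HDAC1 and 0.53 for the dim HDAC5 probe set. Groups and replicate numbers came from the titles. Probe sets with a single symbol in the platform annotation were used, control probe sets left out; log2(signal + 16) was taken. The upper 50% by the higher line mean, 20546 probe sets, was fitted with limma (lmFit, eBayes with a trend; 4 group means, 8 residual degrees of freedom), with two-sided p-values adjusted by Benjamini-Hochberg over all probe sets tested and a threshold of 0.05. SE is limma's moderated one, and intervals are at 95%.

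The members, lists and tests were chosen with earlier results of these data known. Named genes are all members, up to 3 called genes of a list and line with the lowest p, and the 2 genes most like each member. All 8 member gene identifiers matched in the RefSeq gene list. Alternatives, 23 in all, were other normalization, pseudocounts, filters, probe set rules, variance models, a replicate block, separate fits and each array left out. Same-numbered control and siRNA arrays of a line correlated at -0.04 to 0.06 in their deviations from the group means, so the numbers were not taken to pair them. R 4.3.3, limma 3.58.1, Python 3.11.15, numpy 2.4.6, pandas 2.3.3 and matplotlib 3.10.9 were used.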

Additional observations from a re-analysis of the deposited data

Results flagged for a closer look

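HDAC1 was singled out because its response to BCL6 siRNA differed between the lines in the test of the difference itself. The change in Pfeiffer minus that in OCI-Ly7 was -0.66 (limma, adjusted p = 6.59e-05). All 3 Pfeiffer siRNA arrays lay below all Pfeiffer controls, and the OCI-Ly7 groups overlapped. BCL6 itself also fell further in Pfeiffer, with a difference of -0.54 for its brightest probe set (limma, adjusted p = 0.00653).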

How the results depend on the processing

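With 11 member probe sets tested, none was called in OCI-Ly7 under any of the 23 alternatives. In Pfeiffer the count of 2 became 1 with the upper 25% of probe sets tested and in a fit of that line's arrays alone, and ranged from 1 to 2 on leaving out single arrays. The 1 that remained each time was HDAC1, with a change of -0.60 to -0.55 and adjusted p up to 0.000635 over all alternatives; HDAC5 was not among the upper 25%. The difference between lines kept its count of 1, HDAC1. Between controls the count of 8 became 4 with the upper 25%, where 4 member probe sets were tested. Other settings also left called probe sets untested. With 1 probe set per gene these were 230968_at and 223345_at. Without the probe sets whose suffix marks shared or non-unique sequence, they were 216326_s_at and 217937_s_at. With a replicate block the counts were 0, 2, 1 and 8, and it changed no member's call. No called member reversed its sign. Over all tested probe sets the OCI-Ly7 count of 331 ranged from 121 (without OCI-Ly7 siRNA replicate 1) to 508 (array weights), being 182 with the block, 187 with no filter and 125 without a trend; the Pfeiffer count of 2556 was 1352 without the probe sets whose suffix marks shared or non-unique sequence, that of the difference 1321 and then 672, and that between controls 15406 and then 9432, where fewer were tested. BCL6 in OCI-Ly7 was not called without a trend (adjusted p = 0.0832). Fitting lines separately gives no difference between them. Dim probe sets limit what can be said of HDAC4 and of HDAC9 in Pfeiffer.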
